A study of Mus musculus with 8 samples.

Results

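Adult cortical thymic epithelial cells (cTEC) that carried transcripts of the cortical proteases Psmb11 and Prss16 were described in single-cell RNA-seq of 2 captures. The cells were selected on measured values, each capture apart: at most 5% of unique molecular identifiers (UMIs, each counting 1 captured transcript) from mitochondrial genes, at most 5000 genes, at least 1 UMI of Psmb11 and Prss16 together, and under 20 UMIs of Bpifa1, a secreted protein of airway epithelium. This rule kept 325 of the 507 cells within the mitochondrial and gene limits in adult cTEC replicate 1 (511 barcodes deposited) and 425 of 535 in replicate 2 (580 deposited), in all 750 of the 25750 cells of the series within the same limits. The remaining 182 and 110 cells of the 2 adult cTEC libraries are called the other cells of the gate.

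The study followed the thymic epithelium of WT (wild-type) mice of the strain C57 B6 (CD45.2) from the embryo to the adult, as 8 droplet libraries of flow-sorted cells. The adult mice were 4 to 6 weeks old and of either sex, and cTEC were sorted as DAPI- EpCAM+ CD45- Ly51+ UEA-1- cells. Adult medullary thymic epithelial cells (mTEC, Ly51- UEA-1+) gave 1586 and 5615 cells within the limits, and cTEC of embryos at E15.5 and E17.5 (E, embryonic day) and of newborn (NB) thymus, chosen here by the same rule, gave 3543, 8342 and 3589 cells. Data set 1 held adult cTEC replicate 1, adult mTEC replicate 1, E15.5 and NB, and data set 2 held the second adult cTEC and mTEC libraries and E17.5. Adult and NB thymus was dissociated with Liberase and enriched on Percoll, while E15.5 and E17.5 lobes were dissociated with trypsin. The labels do not say whether the 2 adult libraries of a type came from separate mice, so p-values below measure the spread between libraries, which may be technical. Against the younger cTEC this spread also holds the differences between the younger ages.

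cTEC line the outer thymus, where they draw in lymphoid progenitors with chemokines, commit them to the T lineage through Notch ligands, and present self peptides for positive selection. Psmb11 encodes the β5t subunit of the thymoproteasome, an enzyme of cTEC that cuts peptides for MHC class I, and Prss16 encodes a thymus-specific serine protease linked to MHC class II peptides. Ackr4 is a scavenging chemokine receptor, and Cxcl12 is a chemokine for thymocyte progenitors. The forkhead factor Foxn1 controls much of this programme.

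The chosen cells had a median of 4640 UMIs per cell in replicate 1 and 7685 in replicate 2, against 3055 and 5335 in the other cells of the gate, and summed to 1620369 and 3466046 UMIs. Ribosomal protein genes took 12.3% and 18.2% of their UMIs. The adult cTEC libraries shared between 0 and 6 cell barcodes with any other library. UMIs of 15 thymocyte genes reached 5 or more in 11 and 30 of the chosen cells. In replicate 1, 1 chosen cell with 1 UMI of Psmb11 and Prss16 had 365 UMIs of the macrophage complement genes C1qa, C1qb and C1qc, 97.3% of all such UMIs among the chosen cells of that library, and 0 UMIs of Epcam.

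The level of the 2 selecting genes differed widely from cell to cell and between the replicates. The chosen cells of replicate 1 had a median of 5 UMIs of Psmb11 and Prss16 (quartiles 2 and 20, maximum 138), and those of replicate 2 a median of 25 (quartiles 6 and 66, maximum 228). Both transcripts were present in 196 of 325 and 342 of 425 cells. At the edge of the rule, 72 and 42 chosen cells had exactly 1 UMI, while 172 and 109 cells of the gate had 0. The Bpifa1 limit left out 10 cells and 1 cell that had a UMI of the selecting genes, and it fell in a gap, since the highest Bpifa1 count inside was 12 in replicate 1 and 2 in replicate 2, and the lowest outside was 24 and 25. Among adult mTEC, whose gate should lack these transcripts, 25.1% and 29.5% of cells had at least 1 such UMI at their full depth (median 9500.5 and 11386 UMIs). Most of these had Prss16, which was present in 382 and 1508 of the 1586 and 5615 mTEC, while Psmb11 was present in 25 and 253.

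**Figure D1:**
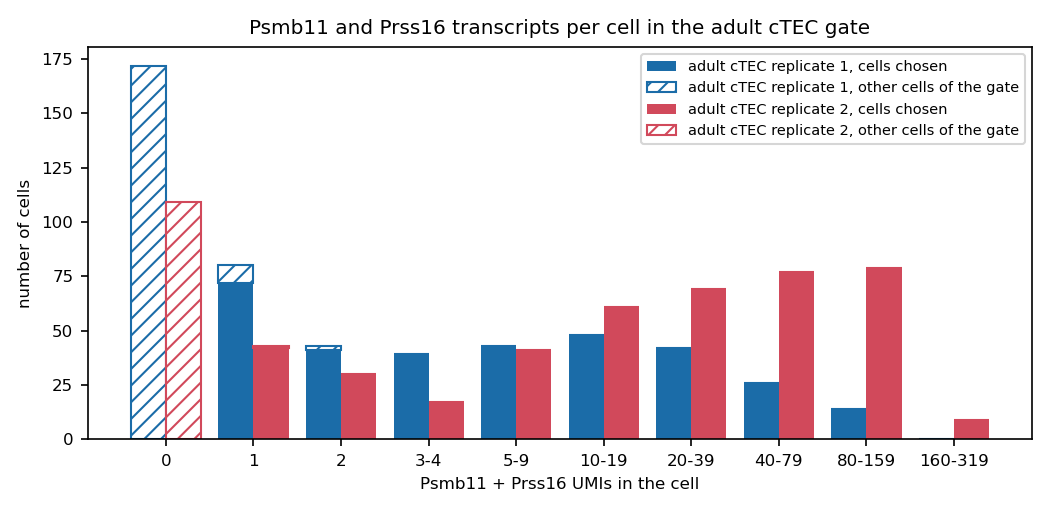
Number of cells of the adult cTEC gate (vertical axis) by their UMIs of Psmb11 and Prss16 together (horizontal axis), for replicate 1 in blue and replicate 2 in red, with the cells chosen as filled bars and the other cells as hatched bars. Replicate 1 has 72 chosen cells at 1 UMI and 82 at 20 or more, while replicate 2 has 42 and 234.

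To compare shares of cells across depths, each cell was thinned to 2000 UMIs, which left out 28 and 5 of the shallowest chosen cells. Intervals are exact binomial 95% intervals and cover counting error only. Thinning left Psmb11 or Prss16 in 86.2% of the chosen cells in replicate 1 and 90.2% in replicate 2, all of which had them before by the rule, so that this is no finding, and 6.12% and 6.96% of adult mTEC showed them at this depth. Of the 2 markers that the rule did not use, Cxcl12 and Ackr4, both were far more common in the cTEC gate than in mTEC. Cxcl12 was seen in 69.7% of the chosen cells in replicate 1 (64.1 to 74.9) and 90.5% in replicate 2 (87.3 to 93.1), in 34.0% and 41.2% of the other cells of the gate, and in 4.10% and 2.37% of mTEC. Ackr4 was seen in 31.0% (25.8 to 36.6) and 22.9% (18.9 to 27.2) of the chosen cells, in 21.5% and 13.7% of the other cells and in 0.757% and 0.346% of mTEC. Ackr4 thus marked cells of the Ly51+ gate on both sides of the rule, and the differences between the chosen and the other cells are given as a description with no test, since the rule drew that line.

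The other cortical genes fell into those seen in most chosen cells and those seen in few at this depth. Ctsl, the lysosomal protease cathepsin L, was seen in 97.3% and 97.9% of the chosen cells, Ccl25, a chemokine for thymocytes and their progenitors, in 75.4% and 68.6%, and Tbata, a gene named for its thymus, brain and testis expression, in 77.8% and 73.1%. The share of mTEC with a Ctsl UMI was 52.0% and 41.2%. Dll4, the Notch ligand for T lineage commitment, was seen in 6.06% and 9.29% of the chosen cells, above the 0.946% and 1.02% of mTEC. Il7, a cytokine for immature thymocytes, was seen in 25.9% and 31.7%, against 277 of 1586 and 519 of 5492 mTEC. The medullary regulators Aire and Fezf2 were seen in 0.673% and 2.36% of the chosen cells of replicate 1 and 0.476% and 1.43% of replicate 2, far below the 33.0% and 46.5% (replicate 1) and 41.2% and 49.0% (replicate 2) of mTEC.

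**Figure D2:**
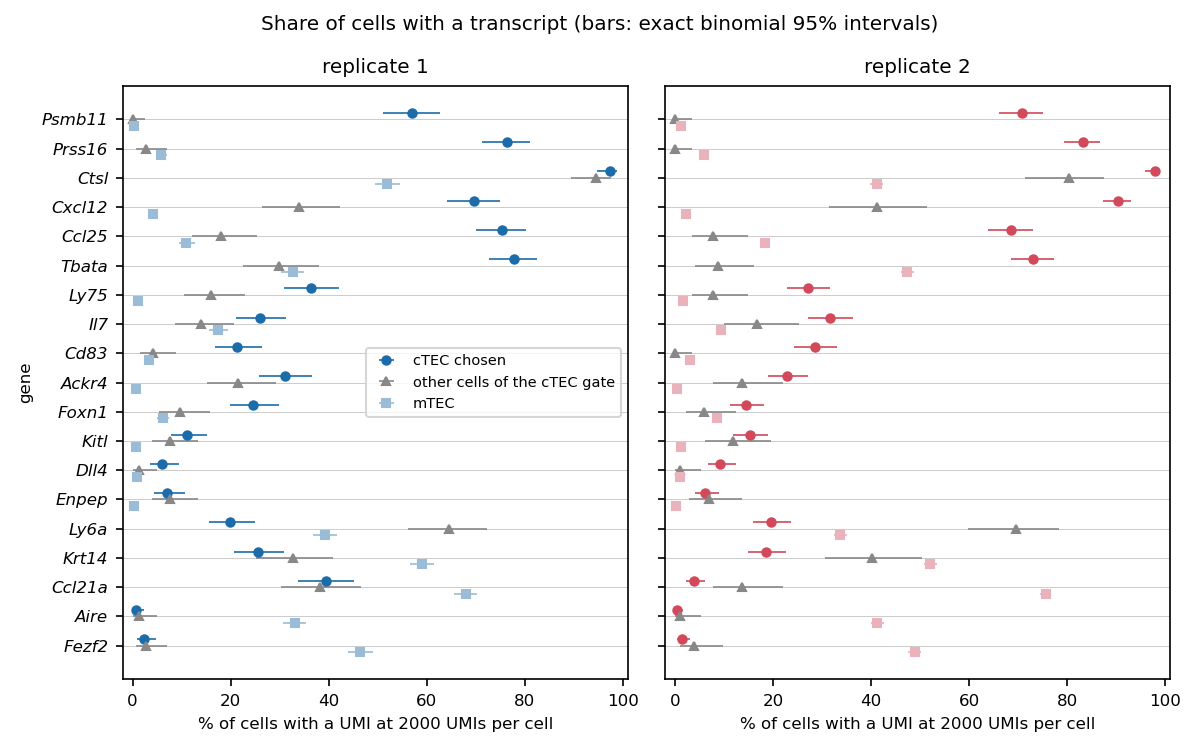
Percentage of cells with at least 1 UMI of each gene after thinning to 2000 UMIs per cell, for chosen cTEC (circles), the other cells of the cTEC gate (triangles) and adult mTEC (squares), 1 panel per replicate; horizontal bars are exact binomial 95% intervals. Cxcl12 is seen in 69.7% and 90.5% of the chosen cells, Dll4 in 6.06% and 9.29%, and Ly6a in 19.9% and 19.5%, against 64.6% and 69.6% of the other cells of the gate.

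The chosen cells were next described by their own level of Psmb11 and Prss16, in bins of 1, 2 to 4, 5 to 19 and 20 or more UMIs. These bins held 72, 80, 91 and 82 cells in replicate 1 and 42, 47, 102 and 234 in replicate 2, and the median depth rose with the bin, from 3454.5 to 6306.5 UMIs and from 5775 to 8878. Counts per 1000000 UMIs (CPM), summed over the cells of each bin, therefore scale out depth, but not the share of each cell's transcripts that the selecting genes and their companions take. Because the bins come from the rule, what follows is a description without a test.

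Cells with more Psmb11 and Prss16 had more of several cortical transcripts, in both replicates. From 1 UMI to 20 or more, Ccl25 went from 236 to 7107 CPM in replicate 1 and from 264 to 6701 in replicate 2. Tbata went from 539.5 to 11587 CPM and from 277 to 12453, and Ctsl from 3701 to 14170 and from 2748 to 15065. The surface receptors Ly75 (100.04 to 585 CPM, and 38.3 to 262) and Cd83 (21.4 to 485, and 8.51 to 442) and the keratins of simple epithelium Krt8 (1683 to 5529, and 1072 to 5051) and Krt18 went the same way. Of the cortical surface and keratin list, 7 of the 9 genes with at least 20 UMIs in the chosen cells of each replicate were at least 2-fold higher in the top bin of both replicates, where 3.12% of all 7365 such genes were. By the same measure 3 of 10 thymocyte-supporting ligands were higher and 1 was lower, and 2 of 10 thymus transcription factors were higher. Of the lysosomal and serine proteases, a list that holds Prss16 itself, 3 of 11 were higher and 5 were lower. Dll4 stood at 10.7 and 4.25 CPM in the bottom bin and at 58.2 and 80.01 in the top one.

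Cxcl12 changed less steeply and was already present where Psmb11 and Prss16 were nearly absent. It stood at 355 and 434 CPM in the cells of the gate with 0 UMIs and under 20 Bpifa1 UMIs (163 and 96 cells), at 386 and 510.5 at 1 UMI, and at 1527 and 2102 at 20 or more. Ackr4 did not rise: it stood at 218 and 140 CPM at 1 UMI, at 273 and 184 at 5 to 19, and at 169 and 88.3 at 20 or more. MHC class II transcripts were level across the bins, with Cd74, the invariant chain, at 13287 and 13403 CPM at the 2 ends in replicate 1 and 13404 and 13995 in replicate 2, and 0 of 9 measured genes of that list differed 2-fold in both replicates. The selecting genes thus varied along with Ccl25, Ctsl and Tbata and not with Ackr4 or MHC class II.

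Within the proteasome the subunits went in opposite directions. Psmb10, a subunit that the immunoproteasome and the thymoproteasome share, went from 307 to 1321 CPM in replicate 1 and from 306 to 1763 in replicate 2, and Psmb9, the other shared subunit, from 368 to 922 and from 306 to 928. Psmb8, the immunoproteasome subunit whose place Psmb11 takes, went from 454 to 160 CPM and from 349 to 116. The proteasome activator Psme1 went from 200.1 to 61.8 CPM and from 199.9 to 48.7.

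Several transcripts of the intertypical and basal, mTEC and mucosal lists were lower in the bins with more Psmb11 and Prss16. Ly6a, a surface antigen, went from 711 to 54.5 CPM in replicate 1 and from 1719 to 44.1 in replicate 2, the lipoprotein Apoe from 3566 to 587 and from 3229 to 208, and the basal keratin Krt14 from 268 to 89.1 and from 536 to 33.1. Of the intertypical and basal list, 7 of 10 measured genes were at least 2-fold lower in the top bin of both replicates, as were 5 of 6 of the mucosal list and 4 of 6 of the mTEC list, against 2.82% of all genes. Few cells carried several of the mucosal and mTEC genes, since 5 cells held 92.9% of the Cxcl17 UMIs in replicate 1 and all in replicate 2, 81.2% and 86.2% of those of Cyp2f2, 86.2% in both replicates of those of Lcn2, and 75.7% and 90.5% of those of Fezf2. In the gate cells with 0 UMIs, Ly6a, Apoe and Krt14 stood at 1301, 2986 and 575 CPM in replicate 1 and at 1984, 3054 and 611 in replicate 2, so that Ly6a and Krt14 were lower at 1 UMI than at 0 in replicate 1, and all 3 were closer to the 0 UMI values in replicate 2. At 2000 UMIs per cell, Ly6a was seen in 15 of 41 chosen cells of replicate 1 in which no Psmb11 or Prss16 was left and in 8 of 112 with 5 or more UMIs of them, and in 26 of 41 and 18 of 251 of replicate 2. Epcam, a pan-epithelial marker used in the sort, went from 918 to 385 CPM and from 693 to 326.

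**Figure D3:**
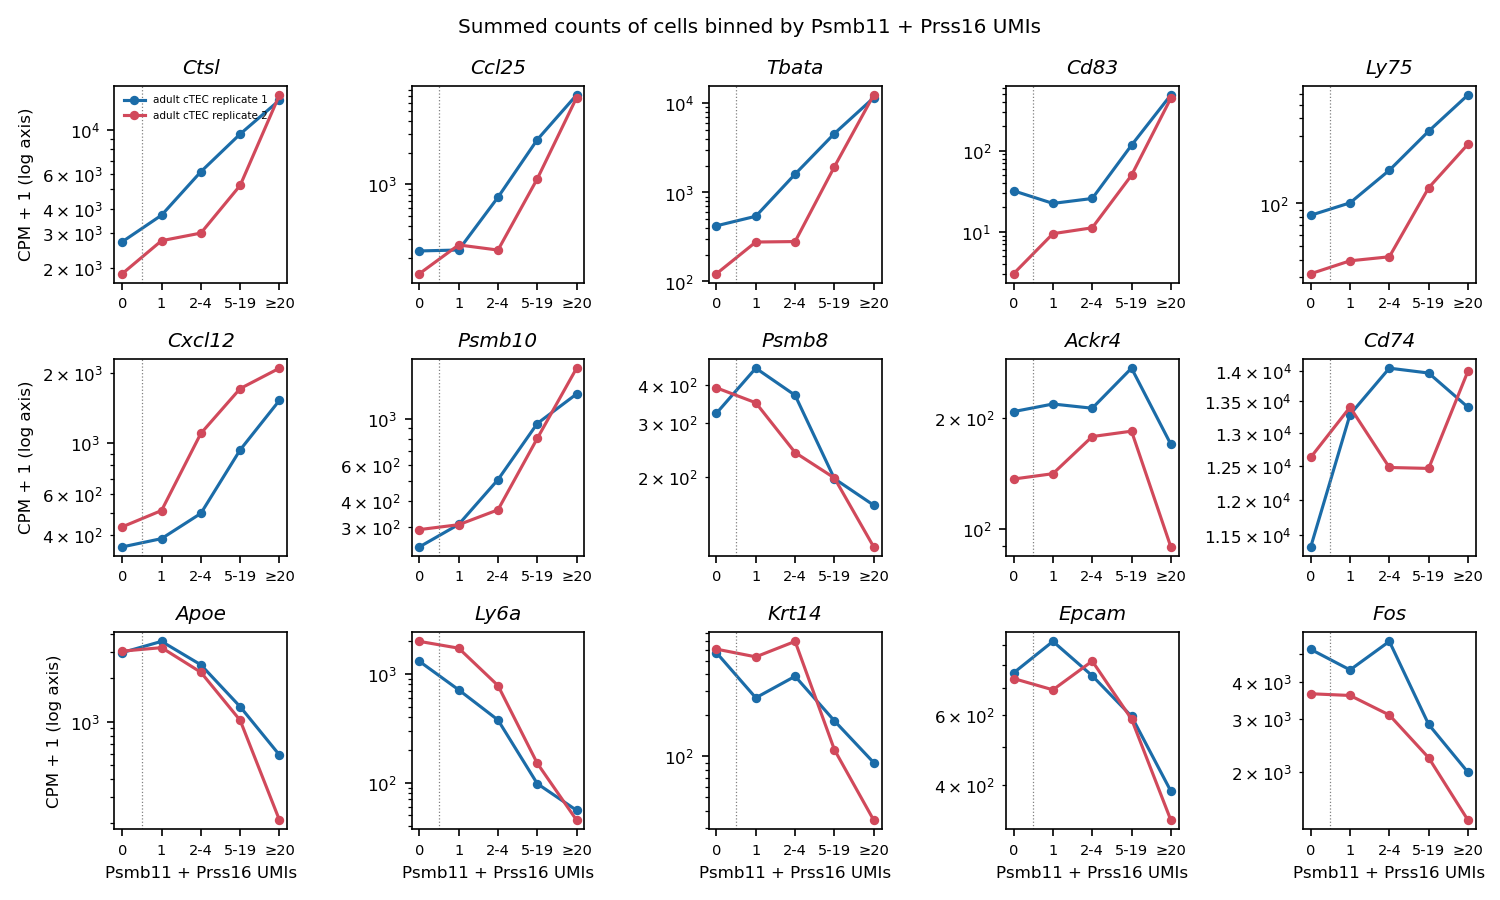
CPM + 1 on a log axis (vertical) of 15 genes in cells of the adult cTEC gate summed by their UMIs of Psmb11 and Prss16 (horizontal), replicate 1 in blue and replicate 2 in red; the dotted line parts the cells with 0 UMIs, which the rule leaves out, from the chosen cells. Ccl25 climbs from 236 to 7107 CPM and from 264 to 6701, Ly6a goes down from 711 to 54.5 and from 1719 to 44.1, and Cd74 stays between 11342 and 14044 CPM in every bin.

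Some stress and cell cycle genes also differed along the bins. Of 19 stress genes, 3 were at least 2-fold lower in the top bin of both replicates, against 2.82% of all genes. The same held for 4 of 19 measured G2/M genes and 0 of 15 measured S phase genes. Fos, an immediate early gene of dissociated tissue, stood at 4405 and 3612 CPM in the bottom bin and at 1988 and 1371 in the top one. The summed level of 52 G2/M genes was 1797, 1598, 1124 and 1134 CPM from the bottom to the top bin of replicate 1, and 2506, 3850, 3822 and 1254 CPM in replicate 2, so that the middle bins stood highest in replicate 2 and not in replicate 1. Mki67 or Top2a, markers of cycling cells, were seen in 9.43% and 7.38% of the thinned chosen cells, against 4.98% and 10.4% of adult mTEC.

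By the lower of the variance-to-mean ratios of the 2 replicates at 2000 UMIs per cell, the 10 most variable genes included the cortical genes Tbata (14.4 and 20.2), Ctsl (9.33 and 14.4) and Ccl25 (9.21 and 10.1), where the median over 2421 genes was 1.07 and 1.06. Ccl21a, a chemokine of medullary and immature epithelium, led the list with 64.7 and 84.1. It was seen in 39.4% of the thinned chosen cells of replicate 1 and in 3.81% of replicate 2, where 5 cells held 86.7% of its UMIs, and its near-identical copies make counts of it uncertain. Wfdc18, a secreted protein of the whey acidic family, and the chemokine Ccl5 were likewise held by few cells: 5 cells carried 76.2% of the Wfdc18 UMIs in replicate 1 and all of them in replicate 2, and 79.2% and 73.8% of those of Ccl5. Malat1, Wfdc2, Fabp5 and Actb completed the list.

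The 2 replicates differed in some transcripts. Of 4198 genes with a mean of at least 32 CPM in the chosen cells, 431 (10.3%) differed at least 2-fold, and the median absolute log2 ratio was 0.35. Counting error has a part in these ratios that was not tested. The widest of these differences were of ribosomal protein genes and their pseudogenes, such as Rps12 (82.2 CPM in replicate 1 and 1530 in replicate 2), which stood at 19.8 and 3369 CPM in mTEC. Among cortical genes, Cxcl12 stood at 942 CPM in replicate 1 and 1824 in replicate 2, Wnt4, a ligand upstream of Foxn1, at 164 and 542 (34.6 and 121 in the mTEC libraries), and Ackr4 at 214 and 120. Ccl21a stood at 4771 and 477 CPM. With 1 library in each data set, the replicate and the data set cannot be told apart.

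Against adult mTEC of the same data sets, the chosen cells were set apart by thymocyte ligands and cortical surface genes on one side and by medullary and peripheral tissue genes on the other. The comparison asks which transcripts separate the cortical from the medullary lineage in the adult. It used the counts summed per library, edgeR's quasi-likelihood test with the data set as a term, and an adjusted p below 0.05. Of 15525 genes, 1423 (9.17%) were higher and 3037 (19.6%) lower in the chosen cells. The fit held 1603388 and 3457305 UMIs of the chosen cells against 16602177 and 67134816 of mTEC. The part of this gap in depth in the 2 counts was not tested. Psmb11 (944 and 1628 CPM, against 3.91 and 8.57 in mTEC) and Prss16 (2298 and 3564 CPM, against 34.6 and 36.3) were used by the rule and were not tested. In GRCm38, the mm10 mouse genome, Psmb11 lies on chromosome 14 from 54621433 to 54629556, Prss16 on chromosome 13 from 22002173 to 22009742, Cxcl12 on chromosome 6 from 117168535 to 117181367 and Ackr4 on chromosome 9 from 104084157 to 104126933.

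Of 15 thymocyte-supporting ligands, 11 were higher in the chosen cells and 2 were lower. Cxcl12 stood at 942 and 1824 CPM in the chosen cells and at 19.2 and 10.8 in mTEC, a log2 difference of 6.43 ± 0.56 (SE, adjusted p = 1.39e-06). Ccl25 stood at 3331 and 4496 CPM against 228 and 315 (3.77 ± 0.44, adjusted p = 1.45e-05), and Kitl, which encodes stem cell factor for early progenitors, at 61.6 and 93.9 against 4.27 and 6.37 (3.78 ± 0.41, adjusted p = 7.17e-06). In all 3 of these chemokine and growth factor genes, both cTEC values lay far above both mTEC values. The Notch ligands Dll4 (26.8 and 58.4 CPM against 5.11 and 5.24, log2 difference 2.89 ± 0.45), Dll1 (2.82 ± 0.42), Jag1 (1.74 ± 0.41) and Jag2 (2.25 ± 0.45) were all higher. Il7 had a smaller difference, at 176 and 191 CPM against 99.0 and 54.8 (1.23 ± 0.39, adjusted p = 0.0253). Bmp4, Wnt4 and Vegfa, secreted factors for epithelial growth and for vessels, made up the 11, and Bmp4 rested on 11 and 17 UMIs in the chosen cells. The 2 lower genes were Cxcl14, a chemokine with 1.87 and 0 CPM against 56.5 and 28.6, and Igf1, a growth factor with 11.8 and 2.60 CPM against 57.7 and 163. Without adult mTEC replicate 2 the ligands called higher numbered 2, without adult mTEC replicate 1 they numbered 3, without adult cTEC replicate 1 they numbered 6 and without replicate 2 they numbered 7, in fits that had to drop the data set term.

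Of the 10 cortical surface and keratin genes, 8 were higher. Ackr4 had 214 and 120 CPM against 2.28 and 1.59 in mTEC (log2 difference 6.30 ± 0.45, adjusted p = 6.18e-07), and Ly75, the endocytic receptor DEC-205, 340 and 199 against 5.53 and 7.77 (5.20 ± 0.46, adjusted p = 1.40e-06). Cd83, which stabilises MHC class II on cTEC, stood at 205 and 290 CPM against 22.8 and 20.7 (3.41 ± 0.40), and Cd274, the checkpoint ligand PD-L1, at 359 and 173 against 40.3 and 20.6 (3.03 ± 0.38). Tbata, Krt18 and the transporter Slc46a2 were also higher, by log2 differences of 3.17, 2.33 and 2.31. Enpep encodes Ly51, on which the cTEC were sorted, so its difference (38.0 and 29.2 CPM against 1.20 and 1.54) is no finding. Krt8 had 3639 and 3911 CPM against 1662 and 1775 and did not pass (1.05 ± 0.41, adjusted p = 0.0644), and Scara3, a scavenger receptor, was lower with 2 and 5 UMIs in the chosen cells. Without adult mTEC replicate 2 the count of 8 became 3, and without mTEC replicate 1 it became 5.

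**Figure D4:**
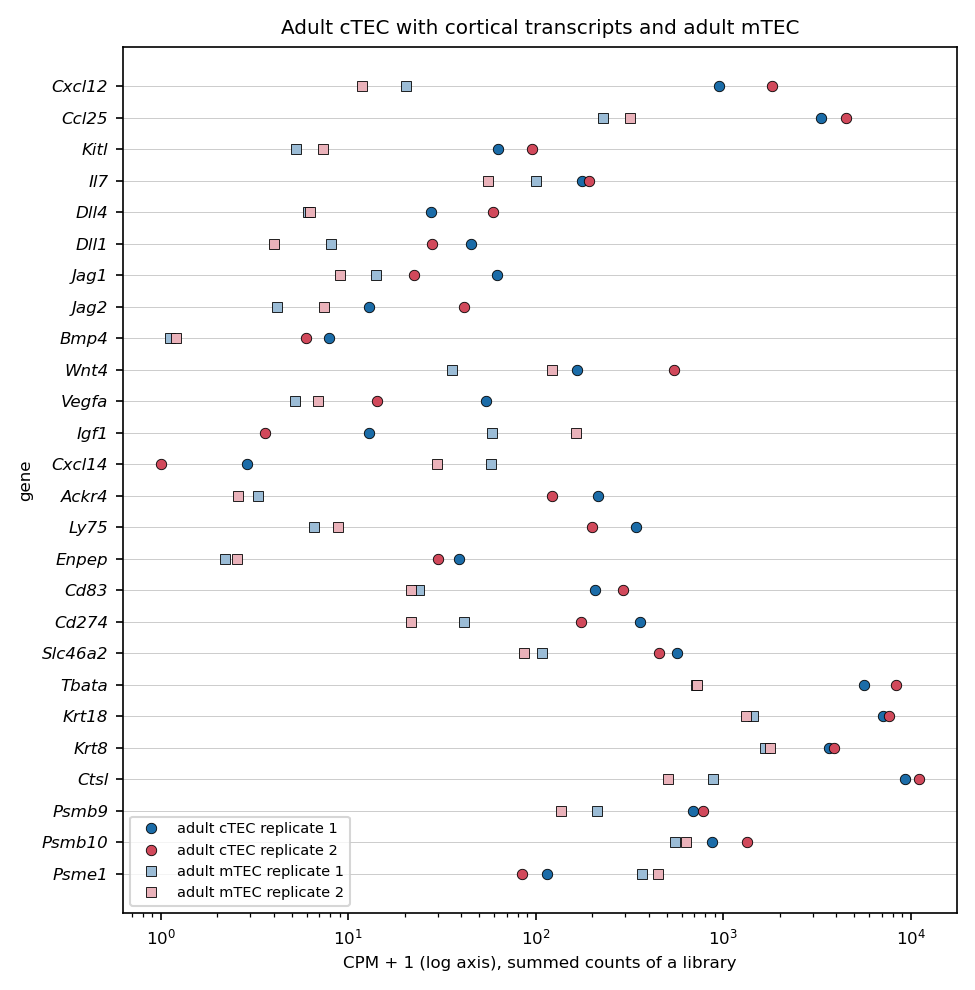
CPM + 1 on a log axis of ligands, cortical surface and keratin genes and proteases (rows) in the chosen adult cTEC (circles) and adult mTEC (squares), with 1 point per library, replicate 1 in blue shades and replicate 2 in red shades. The cTEC points of Cxcl12 lie at 942 and 1824 CPM and those of mTEC at 19.2 and 10.8, while Cxcl14, Igf1 and Psme1 lie lower in cTEC.

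Some antigen processing genes differed between the lineages, and most did not pass. Of 11 lysosomal and serine proteases tested, 2 were higher and 3 lower in the chosen cells. Of 8 proteasome genes 1 was higher and 2 lower, and of 11 MHC class I genes 1 was higher and 2 lower. Over all genes the shares were 9.17% higher and 19.6% lower. Ctsl stood at 9345 and 11057 CPM in the chosen cells and at 883 and 504 in mTEC (log2 difference 3.84 ± 0.51, adjusted p = 4.14e-05), and Lamp2, a lysosomal membrane protein, at 792 and 969 against 189 and 144 (2.33 ± 0.40). The cathepsins Ctsh, Ctss and Ctsz were lower, with Ctss, the cathepsin of MHC class II processing in most antigen-presenting cells, at 67.8 and 7.22 CPM against 197 and 190 (-3.11 ± 0.60). Of the Ctss UMIs of the chosen cells, 5 cells held 83.5% in replicate 1 and 68.0% in replicate 2, and in replicate 1 Ctss stood at 329 CPM at 1 UMI of the selecting genes and at 3.64 at 20 or more. In replicate 1, 5 cells also held 70.8% of the Ctsh and 71.1% of the Ctsz UMIs. Of the proteasome genes, Psmb9 was higher (2.03 ± 0.40), the activator genes Psme1 and Psme2 were lower (-2.15 ± 0.39 and -1.69 ± 0.38), and Psmb10 and Psmb8 did not pass (0.78 ± 0.38 and -0.87 ± 0.37). In the chosen cells with at least 5 UMIs of the selecting genes both of these passed, Psmb10 higher and Psmb8 lower. Of 10 MHC class II genes, 3 were lower, H2-Oa and H2-Ob, whose product inhibits peptide exchange, and H2-DMb2, a share near the 19.6% of all genes called lower. Cd74 stood at 13672 and 13489 CPM against 20995 and 17295 and did not pass (-0.57, adjusted p = 0.396).

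Of 12 transcription factors of the thymus, 6 were higher in the chosen cells: Pax1, Eya1 and Hoxa3, which act in the pharyngeal pouch, Trp63, a factor of epithelial stemness, Isl1 and Foxn1. Foxn1 had 128 and 89.0 CPM against 41.4 and 50.04 (log2 difference 1.14 ± 0.37, adjusted p = 0.0299), and Trp63 had 221 and 89.9 against 34.3 and 19.3 (2.37 ± 0.37). Without adult mTEC replicate 2 the count of 6 became 0 (edgeR's quasi-likelihood test), without mTEC replicate 1 it became 1 of 11 tested, without cTEC replicate 1 it became 3 and without cTEC replicate 2 it became 4. At an unadjusted p under 0.05 the fit without mTEC replicate 2 held 2963 genes in all, and DESeq2 with every library called 4 of the 12. Among receptors, 4 of 13 were higher, the lymphotoxin receptor Ltbr, the FGF receptor Fgfr2, Egfr and Notch2.

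Most medullary genes were lower in the chosen cells. Of the 14 genes of the mTEC list 13 were lower, including Aire (7.47 and 2.60 CPM against 434.5 and 399), Fezf2 (23.0 and 6.07 against 523 and 466) and the milk casein Csn2 (18.1 and 4.05 against 906 and 895), an Aire-dependent tissue antigen. In the chosen cells Aire UMIs came from 6 and 2 cells, and Csn2 UMIs also from 6 and 2. Relb, an NF-kappaB subunit, and the receptor Cd40 held most of the UMIs of the list that remained in replicate 2, with 262 and 112 (155 and 41 in replicate 1). Cd40 stood at 17.9 and 0 CPM at 1 UMI of the selecting genes and at 39.99 and 42.3 at 20 or more. Of the 12 intertypical and basal genes 7 were lower, among them Krt5, Krt14, Krt15 and Krt17, keratins of basal and stratified epithelium, and Pdpn, podoplanin, was higher. Ccl21a was among the 7, at 4771 and 477 CPM against 6437 and 2893 in mTEC (log2 difference -1.60 ± 0.52, adjusted p = 0.0314). From the bottom to the top bin of Psmb11 and Prss16 it stood at 8078, 10732, 3111 and 405 CPM in replicate 1 and at 4003, 778, 1.32 and 222 in replicate 2. The genes with the largest negative differences were those with 0 UMIs in both cTEC replicates, among them the gut hormone Pyy (138 and 181 CPM in mTEC), the trefoil peptides Tff3 and Tff1, neurotensin (Nts), the calmodulin regulator Pcp4 and osteopontin (Spp1). For the 10 such genes with the largest differences, 3 counts over both libraries put in place of 0 gave log2 differences from -8.25 to -6.92. These are approximate limits and not estimates, and the true differences may be smaller or larger. Such genes entered the test through their mTEC counts alone. On the other side, the largest positive differences beside those of Cxcl12, Ackr4 and Ly75 were of Snhg11 (545 and 339 CPM against 3.85 and 5.64), a host gene of small nucleolar RNAs, the potassium channel gene Kcnk2 (300.01 and 256 against 5.23 and 3.56), the small GTPase gene Diras2, Plekhb1, the prolyl hydroxylase subunit gene P4ha3, the synaptic vesicle gene Syngr1 and Frmd6, a FERM domain gene of the Hippo pathway, with log2 differences between 4.84 and 6.42.

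Genes of other cell types were measured beside these results. Of 15 thymocyte genes, 6 were higher and 1 was lower in the chosen cells, with a summed level of 145 and 172 CPM against 89.0 and 72.2 in mTEC. Without cells holding 5 or more thymocyte UMIs, 2 of the 8 thymocyte genes still tested were higher, and the calls among ligands (11), cortical surface genes (8) and transcription factors (6) had the same numbers. The myeloid list summed to 420 and 18.5 CPM in the chosen cells against 495 and 622, and leaving out the cell rich in C1q, a choice made after the data were seen, gave the same numbers in those 3 lists. Dcn, a matrix proteoglycan of mesenchyme that stood at 345 and 240 CPM in the chosen cells against 78.4 and 46.8, was the 1 higher gene of the mesenchymal list, while Col1a1 and Pdgfra were at 0 in both replicates. In the bins, Dcn stood at 432 and 808 CPM at 1 UMI and at 109 and 88.3 at 20 or more. Of the stress genes, 6 of 19 were higher and 1 was lower, with a summed level of 19218 and 11565 CPM against 11012 and 6074, and their part in the other differences was not tested.

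Against the younger cTEC of the growing thymus, few genes passed. Each younger age had 1 library, so differences between these ages counted as spread in the test. The number of genes called is therefore no measure of how far the adult cells differ from each age. Of 14235 genes, 103 (0.724%) were higher and 32 (0.225%) lower in the chosen adult cells than in E15.5, E17.5 and NB cTEC taken as 1 group. The younger cells carried more of the selecting transcripts per cell, with medians of 26, 48 and 29 UMIs at E15.5, E17.5 and NB against 5 and 25 in the adult replicates, and 13, 11 and 22 of them had exactly 1 UMI. The comparison was therefore also made with cells of at least 5 UMIs at every age, which kept 173 and 336 adult cells and gave 26 genes higher and 16 lower. No gene was called by edgeR's quasi-likelihood test without adult cTEC replicate 1, without replicate 2 or without E17.5, where 955, 2143 and 1790 genes had an unadjusted p under 0.05. DESeq2 called 1096 genes with all 5 libraries. Both this and the mTEC comparison use the same 2 adult cTEC libraries. The fit without E15.5 called 948 genes and that without NB 1085.

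Of the ligands, Ctsl and the cortical surface genes described here, none but Jag1 and Igf1 passed against the younger cells, and some lay on 1 side of every younger library. Cxcl12 stood at 942 and 1824 CPM in the adult replicates and at 629, 970 and 875 at E15.5, E17.5 and NB (log2 difference 0.50 ± 0.36, adjusted p = 0.460). Ccl25 stood at 3331 and 4496 CPM against 2177, 2400 and 4211 (0.35 ± 0.46), Dll4 at 26.8 and 58.4 against 80.3, 52.1 and 55.1 (-0.71 ± 0.43) and Ctsl at 9345 and 11057 against 4399, 13274 and 13860 (-0.17 ± 0.56). The adult and younger values of these 4 genes overlapped. In cells with at least 5 UMIs both adult values of Cxcl12 (1272 and 2002 CPM against 636, 970 and 881, log2 difference 0.82) and of Ccl25 (5200 and 5262 against 2215, 2402 and 4290, also 0.82) lay above every younger one, and neither passed (adjusted p = 0.264 and 0.343). Of the cortical surface and keratin list 0 of 10 passed in edgeR's test, as in DESeq2. Ackr4 stood at 214 and 120 CPM against 57.4, 97.3 and 96.6 (0.91 ± 0.38, adjusted p = 0.246), above every younger library. Tbata stood at 5606 and 8295 against 2100, 5601 and 4709 (0.57 ± 0.46, adjusted p = 0.510), with adult replicate 1 level with E17.5. Il7 had 176 and 191 adult CPM against 357, 311 and 282, below every younger library, and did not pass (-0.87 ± 0.30, adjusted p = 0.195). A p that misses the threshold does not show that these levels were alike.

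Among the 10 genes with the largest positive differences were Igfbp5 and Igfbp7, which bind insulin-like growth factors, Mgp, S100a6 and Frmd6, and these 5 and Wfdc18 also passed in cells with at least 5 UMIs. The other 4, Gm12840, H2-Q4, Gm8797 and Myl9, missed the threshold there, with adjusted p between 0.0546 and 0.0890. Of the 135 genes called, 36 were also called at 5 UMIs or more. Igfbp5 stood at 439 and 70.2 CPM in the adult replicates against 2.74, 1.26 and 2.19 at E15.5, E17.5 and NB (log2 difference 6.71 ± 0.47, adjusted p = 0.0110), and Igfbp7 at 49.2 and 164 against 0.0366, 3.65 and 1.22 (5.83 ± 0.83, adjusted p = 0.0409). Mgp, the matrix Gla protein that inhibits calcification, stood at 642 and 412 against 68.8, 48.5 and 44.2 (3.25 ± 0.33, adjusted p = 0.0184). S100a6, a calcium-binding protein, stood at 716 and 336 against 10.1, 5.98 and 31.6 (5.33 ± 0.56), and Frmd6 at 373 and 275 against 26.1, 27.9 and 70.4 (3.02 ± 0.45). In all of them both adult values lay above all 3 younger ones. With at least 5 UMIs the log2 differences were 6.21 for Igfbp5, 5.84 for Igfbp7, 2.28 for Mgp, 4.76 for S100a6 and 3.35 for Frmd6, each with an adjusted p of 0.0486 or lower. NB, dissociated like the adult, gave log2 ratios of CPM + 10 in data set 1 of 5.20, 2.40, 3.59, 4.13 and 2.25 for the same genes. The mesenchymal list summed to 356 and 245 CPM in the adult replicates against 8.85, 9.82 and 30.8, with 0 of 5 tested genes called. Its gene Dcn, with at least 5 UMIs, stood at 169 and 133 against 1.91, 5.69 and 25.1 (log2 difference 3.99, adjusted p = 0.126). A part of mesenchymal transcripts in the differences above was not tested.

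Other genes called higher in the adult missed the threshold at 5 UMIs or more, and several were held by a handful of cells. Krt14 stood at 211 and 140.5 CPM against 25.9, 26.0 and 33.4 (log2 difference 2.58 ± 0.27, adjusted p = 0.0184), but at 129 and 53.2 with at least 5 UMIs, where it did not pass (1.62, adjusted p = 0.0913). The claudin genes Cldn3, Cldn4 and Cldn7 of tight junctions, the mucosal genes Cyp2f2, Msln, Lcn2 and Cxcl17, and Fezf2 were called higher among all chosen cells and missed the threshold at 5 UMIs or more, where their log2 differences were still between 2.63 and 7.72 (adjusted p between 0.0710 and 0.259). For Msln, mesothelin, 5 cells held 90.2% of the UMIs in replicate 1 and all of them in replicate 2. Wfdc18, with a log2 difference of 6.86, had 70.8% and 98.8% of its UMIs in 5 cells. Of the mTEC list 3 of 10 tested genes and of the mucosal list 4 of 9 were called higher, and 0 of 8 and 0 of 7 at 5 UMIs or more by edgeR's test. DESeq2 called 6 and 6 among all chosen cells. Lyz2, a myeloid lysozyme, was called as well, with 91.6% and 95.2% of its UMIs in 5 cells. Jag1 (61.0 and 21.4 CPM against 8.85, 6.72 and 9.34) and Igf1 were the 2 called genes of the 15 ligands, and the 19 and 9 adult UMIs of Igf1 came from 7 and 5 cells.

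**Figure D5:**
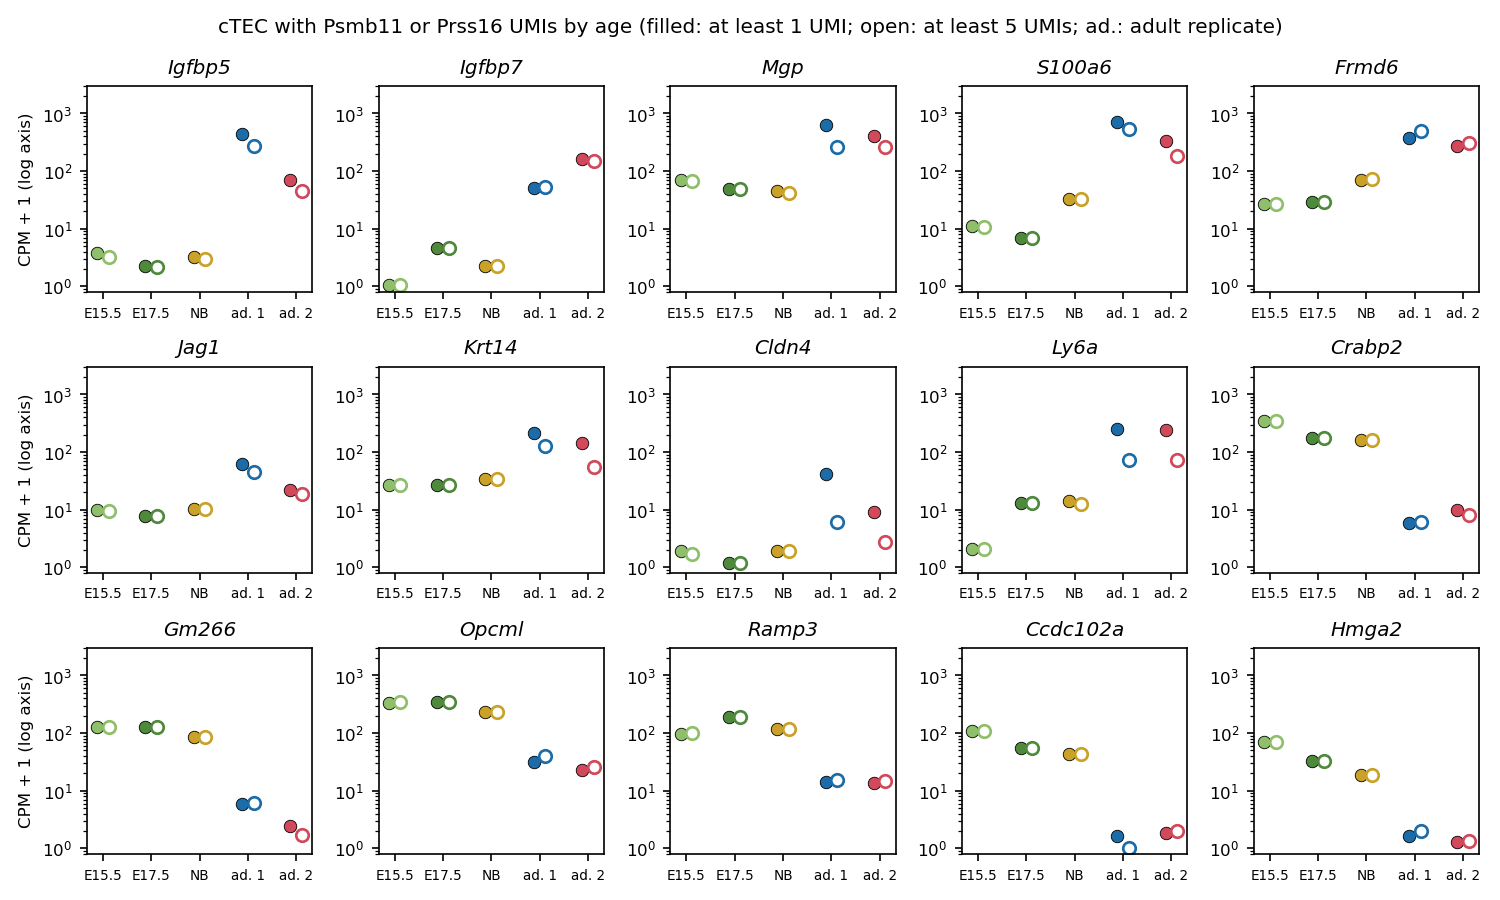
CPM + 1 on a log axis of 15 genes in cTEC of each age (horizontal; ad. 1 and ad. 2 are the adult replicates), filled for cells with at least 1 UMI of Psmb11 and Prss16 and open for cells with at least 5. Igfbp7 and Frmd6 hold their adult level in the open points, while Cldn4 goes from 41.1 to 5.19 CPM in replicate 1 and from 8.10 to 1.71 in replicate 2, and Ly6a from 252 to 72.6 and from 243 to 71.3.

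Of the genes lower in the adult cells, 32 were called among all chosen cells and 16 at 5 UMIs or more. Crabp2, which binds retinoic acid, stood at 4.98 and 8.96 CPM against 348, 177 and 162 at E15.5, E17.5 and NB (log2 difference -5.03 ± 0.58, adjusted p = 0.0253). Opcml, a cell adhesion gene, stood at 31.1 and 22.3 against 337, 340.5 and 230.5 (-3.59 ± 0.39), and Ramp3, which modifies peptide hormone receptors, at 13.1 and 12.7 against 96.9, 189 and 115 (-3.51 ± 0.36). Ccdc102a and the uncharacterised Gm266 had 4 and 13 UMIs over both adult replicates and log2 differences of -6.39 and -5.39. These 5 genes also passed with at least 5 UMIs of Psmb11 and Prss16. Bex2, the imprinted genes Meg3 and Grb10, the galactokinase gene Galk1 and the integrin gene Itgb7 were called lower among all chosen cells, with log2 differences between -3.70 and -2.48 there, and missed the threshold at 5 UMIs or more, with adjusted p between 0.0558 and 0.0841 and log2 differences between -4.31 and -2.11. Hmga2, a chromatin protein of fetal progenitors that the study had picked out, had 1 UMI in each adult replicate against 70.1, 32.1 and 17.6 CPM (-6.55 ± 1.01, adjusted p = 0.0452), and it missed the threshold at 5 UMIs or more with a similar difference (-6.09, adjusted p = 0.0710). Of the 4 listed fetal genes that the study named, Hmga2 was the 1 called lower, and 3 were not called. Among those 3, Igf2bp3 stood near its younger level at 5 UMIs or more. It had 72.6 and 53.2 CPM in the adult replicates against 78.8, 43.9 and 90.7 (log2 difference -0.053, adjusted p = 0.936 by edgeR's test).

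Stress and cell cycle lists differed in level between the ages, and no gene of them passed. All 19 stress genes had positive differences and 0 passed in edgeR's test, and their summed level was 19218 and 11565 CPM in the adult replicates, 11976 in NB, and 563 and 1048 in the trypsin-dissociated E15.5 and E17.5 cells. The 42 S phase genes summed to 603 and 653 CPM in the adult cells, against 1669, 880 and 1070 at E15.5, E17.5 and NB, and the 52 G2/M genes to 1352 and 2121 against 5721, 2417 and 2916, with 0 genes of either list called. Thymocyte genes summed to 145 and 172 CPM against 7.13, 21.2 and 113. The age groups and the dissociation overlap, so their parts cannot be told apart beyond the NB values given above.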

How the data were processed

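The authors sorted the cells, prepared 10x Genomics 3' libraries and deposited UMI counts per gene and cell barcode. Per the submitters' processing notes they used bcl2fastq 2.17, Cell Ranger 2.0.1 and STAR 2.5.1b on mm10; the file headers of the data set 2 matrices name Cell Ranger 3.0.1. The 2 data sets list 27998 and 31053 genes, of which 27514 identifiers (27487 symbols) are shared and were used; symbols with several identifiers were summed. Pseudogenes and close copies can therefore be counted differently in the 2 data sets.

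No doublet caller was run, so the limit of 5000 genes was the only guard. Cells were chosen by the stated rule in every cTEC library, and counts were summed per library and scaled to CPM. Comparisons used edgeR 4.0.16 (R 4.3.3): filterByExpr, TMM, glmQLFit and glmQLFTest with the data set as a term, and Benjamini-Hochberg adjusted p over all genes tested, with 1 residual degree of freedom against mTEC and 2 against younger cTEC. SE is the absolute log2 difference over the square root of F. In simulated counts with 200 genes changed by 2 on the log2 scale, 147 were recovered in each comparison (2.00% and 5.77% of calls false). The changed genes were drawn from those with an average log2 CPM above 5, so recovery of lower genes was not measured. DESeq2 1.42.0, other scaling, filters, cell thresholds and left-out libraries were the alternatives. Shares used thinning to 2000 UMIs; intervals cover counting error only. E13.5 total TEC entered no comparison. Not every gene or list is reported here.

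The cells and the 25 gene lists were chosen with earlier results of these data known. Named genes are those of the lists and, per comparison, the 10 with the largest change in each direction among called genes with an average log2 CPM above 5 and the same sign in both data sets (against younger cTEC, both adult libraries beyond each younger library of their data set), leaving out genes of non-epithelial lists, ribosomal, mitochondrial, haemoglobin and antigen receptor genes, Psmb11, Prss16 and Bpifa1. Coordinates come from GENCODE vM21 (GRCm38).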

Additional observations from a re-analysis of the deposited data

Results flagged for a closer look

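The E13.5 library, sorted as total thymic epithelium and used in no comparison, showed Psmb11 or Prss16 transcripts in 57.0% of its cells at 2000 UMIs per cell, above the 6.12% of adult mTEC of the same data set. Ackr4 was seen in 0.759% of the E13.5 cells and Cxcl12 in 23.9%.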

How the results depend on the processing

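Against mTEC, the count of 4460 called genes moved by over 1.5 times with DESeq2 (2316) and ranged from 478 to 3391 when 1 library was left out, lowest without adult mTEC replicate 2, with 1462 without mTEC replicate 1 and 2254 without cTEC replicate 2; these fits drop the data set term. Against younger cTEC, the count of 135 became 1073 with no filter on low counts, 54 with no data set term, 42 at 5 or more UMIs, 948 without E15.5, 1085 without NB, 712 with all cells of the gate, 314 with 3 groups in 1 fit and 1096 with DESeq2, and ranged from 0 to 1085 when 1 library was left out, at 0 without adult replicate 1, adult replicate 2 or E17.5. Against mTEC the data set term pairs the cTEC and mTEC libraries of each data set, and 4058 genes were called without it. In replicate 1 the 325 chosen cells became 212 at 3 UMIs, 173 at 5 UMIs and 196 with both genes, and the other rules tried kept the number within 1.5 times. Of the genes named, the log2 difference changed sign for Apoe against mTEC at 5 or more UMIs (-0.13), Ly6a against mTEC with all cells of the gate (0.42), and, against younger cTEC, Ctsl at 5 or more UMIs (0.14) and without NB (0.37), Ccl25 with all cells of the gate (-0.011) and without adult replicate 2 (from -0.065 to 0.82 without 1 adult library) and Dll4 without adult replicate 1 (from -1.46 to 0.080); none of these 5 genes had passed the test in its comparison. The cause was not tested. Both comparisons rest on 2 adult cTEC libraries of 1620369 and 3466046 UMIs, so genes of a few CPM rest on few counts.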
